A study of Mus musculus with 16 samples.

Results

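The inflammatory genes followed here in O4-sorted brain cells of juvenile mice number 10: the cytokines Il1a, Il1b and Tnf, the chemokines Cxcl2, Cxcl10, Ccl2, Ccl3 and Ccl4, and the NF-kB feedback inhibitors Nfkbia and Tnfaip3. They were taken by name, and all 10 were found among the 32207 genes of the count table and passed the filter on low counts. The libraries come from OF-1 mice, an outbred strain, at postnatal day 16. The 4 groups are male controls, female controls, males exposed to bisphenol A (BPA, a plastics monomer that binds estrogen receptors) and females exposed to BPA, with 4 libraries each. Pregnant mothers drank BPA from gestational day 7 on and during lactation, so exposure spanned the time before birth and the suckling period. The labels put the dose at 40 µg/kg/day and the design text puts the water at 250 µg/mL; which of these scales holds was not settled. No allele or transgene is labelled in any group. Cells were dissociated from whole brain and sorted magnetically for O4, a surface antigen of oligodendrocytes and their late precursors. Litter and batch are not labelled. Exposure went through the mothers, so littermates share it, and tests that treat libraries as independent may give p-values that are too small.

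Interleukin 1 and tumour necrosis factor are alarm cytokines that in brain come mainly from microglia, the resident macrophages. Their receptors activate the transcription factor NF-kB, which switches on chemokine genes that recruit other immune cells. NF-kB also switches on its own brakes: Nfkbia encodes IkB-alpha, which holds NF-kB in the cytoplasm, and Tnfaip3 encodes A20, a ubiquitin-editing enzyme that stops signalling upstream of it. C1qa, a chain of complement C1q, and Csf1r, the receptor on which microglia depend for survival, serve here as a gauge of microglial RNA in each library.

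No member passed the adjusted threshold for BPA in either sex, and of all genes only 0.00612% did in males and 0.00% in females. Most of them followed the microglial gauge: within groups, 7 of the 10 rose with C1qa and Csf1r (3.16% of all genes did). That count was 2 without the library female BPA 1 and 3 with the replicate number as a block, and 3 members passed in a permutation test of the correlation. In females all 10 had higher fitted levels after BPA (50.6% of all genes did), of which Cxcl2 and Ccl2 had the smallest p, while C1qa and Csf1r stayed within 0.06 on the log2 scale of the controls. Without female BPA 1 the female count was 8, and the median log2 fold change of the members fell from 0.54 to 0.23. The BPA females without that library averaged 114 CPM of C1qa, beside 137 in controls, and 260 CPM of Csf1r, beside 317. In males 8 of 10 were higher (52.5% of all genes), a count that ran from 3 to 10 when single libraries were left out, and C1qa and Csf1r were higher by more than every member except Ccl2.

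Total counts ran from 23603816 to 42575326 per library. The sort label held: Mog, a myelin protein gene of mature oligodendrocytes, stood between 2752 and 4116 CPM. CPM gives a gene's share of all counts after the libraries are scaled. The 21 microglia markers together made up between 859 and 3302 CPM, with female BPA 1 highest and male control 1 lowest, so the sorted cells were not free of microglial RNA. The 9 border-associated macrophage markers together stood between 110.0 and 227 CPM. Of the 12 monocyte and neutrophil markers only 4 passed the filter, and Ly6c2, which defines inflammatory monocytes, was at 0 in the median library. Others of that list were present: Csf3r averaged 10.1 CPM in the 8 controls and 12.2 CPM in the 8 BPA libraries. Within groups, 2 of the 4, Csf3r among them, rose with C1qa and Csf1r (3.16% of all genes did; limma-voom adjusted p = 3.18e-05 for Csf3r). S100a8 and S100a9 stood at 0.166 and 0.0689 CPM in the median library. Which cells the RNA of this list came from was not tested. The 12 together stood between 4.47 CPM in male control 1 and 30.5 CPM in female BPA 1. A pair of libraries stands apart: female BPA 1 had the most microglial RNA, and male BPA 2 had astrocyte markers at 7153 CPM in sum, beside at most 2807 in the control groups and 2686 in BPA females. In such bulk samples, fewer cells of a type and less RNA per cell cannot be told apart.

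Per transcript length, the members' levels span a wide range. On the authors' scale of normalized counts per kilobase of median transcript length, Nfkbia was highest at 1198 ± 364 (mean ± SD, n = 16). Ccl3 at 816 ± 396 and Ccl4 at 763 ± 454 followed, and Ccl3 was above Ccl4 in 12 of 16 libraries. Ccl2 (308 ± 105), Tnfaip3 (250.4 ± 134) and Il1b (181 ± 114) came next. Il1a stood at 122 ± 84.2, Cxcl2 at 107 ± 49.7 and Tnf at 76.1 ± 35.6. Cxcl10 was lowest at 26.0 ± 13.5. Several neighbours in this order do not differ beyond their spread: Ccl2 exceeded Tnfaip3 in 10 libraries and Il1a exceeded Cxcl2 in 9, whereas Nfkbia exceeded Ccl3 and Tnf exceeded Cxcl10 in all 16. Among the 16339 genes tested, Nfkbia lies at percentile 76.2 of level per length and Cxcl10 at percentile 19.0. For scale, Csf1r stood at 6862 ± 2722 on the same per-length measure, above every member.

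**Figure D1:**
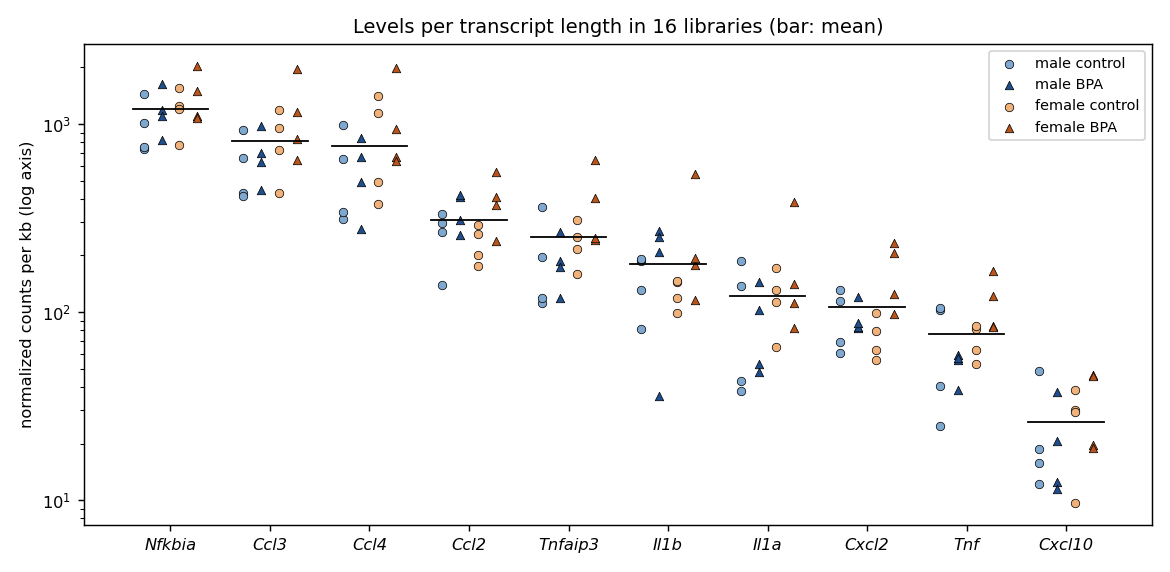
Level of each member per kilobase of median transcript length (y axis, log scale, the authors' normalized counts) in 16 libraries by group (circles control, triangles BPA), members ordered by their mean (bar). Nfkbia lies above Ccl3 in all 16 libraries, and the groups overlap for each member.

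The promoters of 4 members carry a match to the NF-kB binding consensus in the 250 bases before the annotated start, and they are shown because NF-kB is the factor that the feedback genes restrain. The sequences are from RefSeq with build GRCm38.p6, which is not the build of the count table, and 8 of the 10 members have an entry; Ccl2 and Ccl4 were not matched. Capitals mark matches to the consensus on either strand. Each sequence reads 5′ to 3′ on the gene's own strand and ends at the base before the start.
Nfkbia: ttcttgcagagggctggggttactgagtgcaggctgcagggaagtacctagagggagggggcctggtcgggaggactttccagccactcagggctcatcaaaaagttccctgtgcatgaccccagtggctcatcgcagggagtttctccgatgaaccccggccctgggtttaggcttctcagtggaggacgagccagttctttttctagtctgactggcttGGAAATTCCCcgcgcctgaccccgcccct
Tnfaip3: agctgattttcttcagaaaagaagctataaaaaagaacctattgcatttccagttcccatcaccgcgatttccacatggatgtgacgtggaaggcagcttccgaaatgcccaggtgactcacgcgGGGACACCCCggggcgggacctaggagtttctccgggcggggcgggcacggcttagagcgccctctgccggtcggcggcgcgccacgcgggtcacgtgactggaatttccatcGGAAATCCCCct
Cxcl2: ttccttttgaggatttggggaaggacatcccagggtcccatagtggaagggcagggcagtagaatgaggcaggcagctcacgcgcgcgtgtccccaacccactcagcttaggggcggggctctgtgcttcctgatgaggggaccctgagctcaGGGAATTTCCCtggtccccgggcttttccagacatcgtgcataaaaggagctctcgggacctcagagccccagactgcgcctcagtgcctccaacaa
Cxcl10: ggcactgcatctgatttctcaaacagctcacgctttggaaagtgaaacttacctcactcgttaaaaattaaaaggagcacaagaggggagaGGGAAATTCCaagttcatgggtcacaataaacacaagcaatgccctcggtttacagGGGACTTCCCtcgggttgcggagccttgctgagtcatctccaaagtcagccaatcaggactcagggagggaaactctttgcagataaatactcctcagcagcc
These windows lie at chr12:55492648-55492897 (minus strand) for Nfkbia, chr10:19015411-19015660 (minus strand) for Tnfaip3, chr5:90903649-90903898 (plus strand) for Cxcl2 and chr5:92348890-92349139 (minus strand) for Cxcl10. Nfkbia holds 1 match, from base 29 to base 20 before the start. Tnfaip3 holds 2, the nearer one starting 12 bases before the start, and a second annotated start of Tnfaip3 holds none. In Cxcl2 a single run reads as a match on each strand, and the pair overlaps by all but 1 base at each end. Cxcl10 holds 2 separate matches, the nearer starting 103 bases before the start. The consensus, searched on both strands, was found in 1281 of 32851 promoters of the same length, or 3.90%. The AP-1 motif TGANTCA occurred in Il1a, Cxcl10 and Tnfaip3 (6.75% of all promoters), and the core of the interferon-stimulated response element in Cxcl10 alone of the 8 (2.98%). No AP-1 or interferon match overlaps an NF-kB match. A match describes letters and not a bound site.

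**Figure D2:**
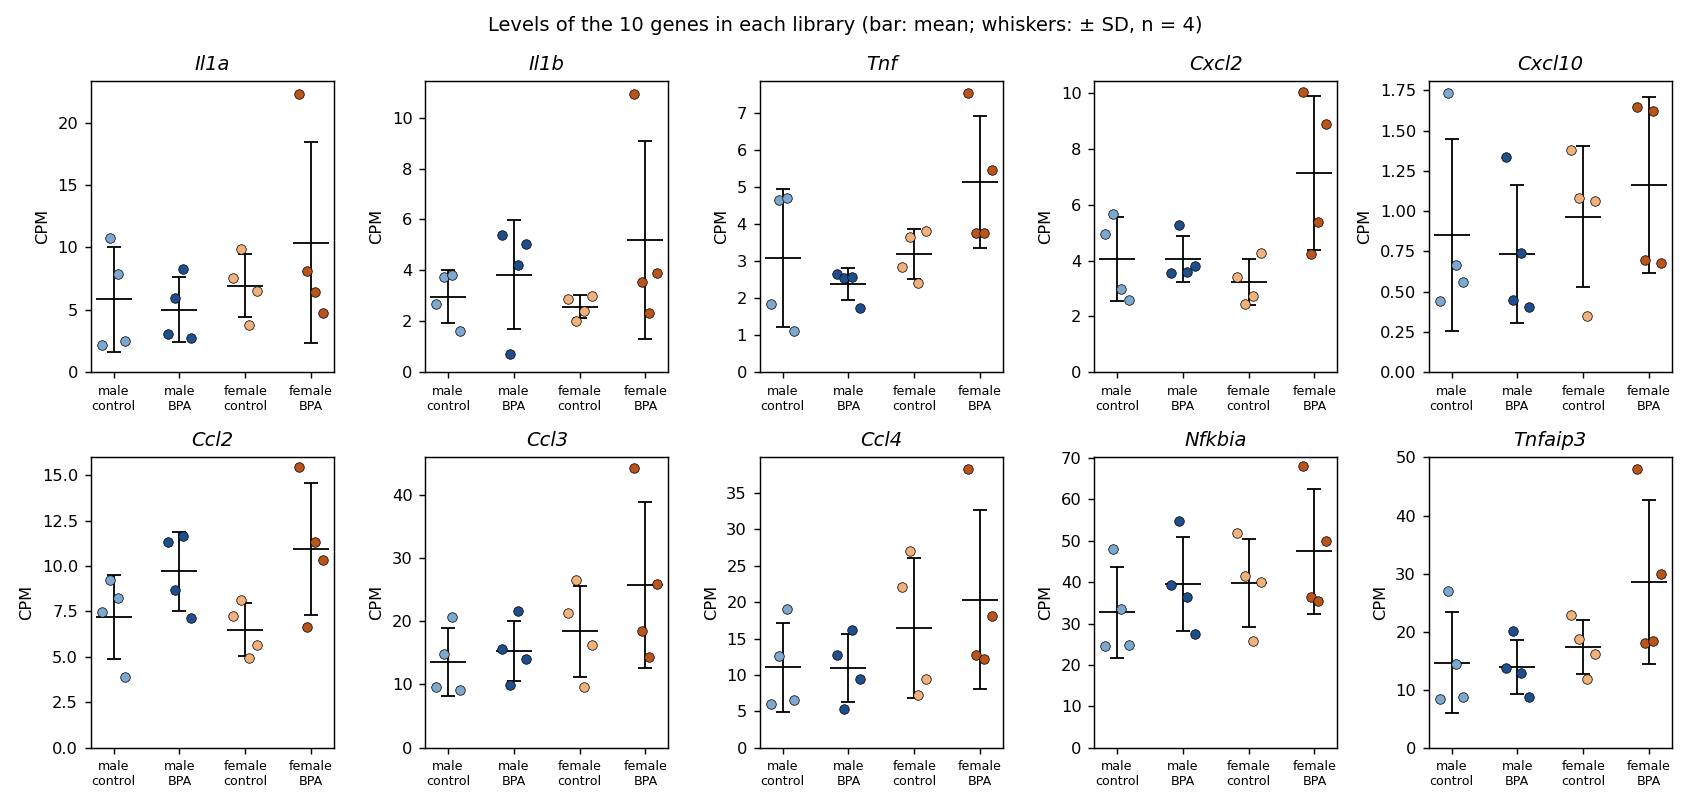
CPM of each member (panels, linear axis from 0) in the 16 libraries, grouped by sex and exposure; points are libraries, the bar is the group mean and whiskers are ± SD (n = 4). Female BPA 1 is the highest point in every panel except Cxcl10, and control and BPA libraries overlap in every panel.

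The question put to the cytokines was whether BPA changed them in either sex. The values below are in CPM, in the order of the replicate numbers. Il1a, interleukin 1 alpha, stood in males at 2.196, 10.8, 7.87 and 2.48 CPM in controls and 3.02, 5.95, 8.28 and 2.77 CPM after BPA. In females it stood at 7.55, 9.86, 3.76 and 6.53 CPM in controls and 22.3, 8.11, 6.39 and 4.70 CPM after BPA. The male groups overlap, and in females only BPA 1 lies above the controls. The log2 fold change of BPA against control was 0.036 ± 0.62 in males and 0.45 ± 0.49 in females (limma-voom, ± SE; adjusted p = 0.993 and 0.999). Without female BPA 1 the female value was -0.020, so that library decides it.

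Il1b, interleukin 1 beta, which caspase 1 must cut before it acts, had the widest span of the members. In males it stood at 2.66, 3.75, 3.82 and 1.62 CPM in controls and 5.41, 0.722, 4.19 and 5.02 CPM after BPA. Female libraries held 2.89, 2.004, 2.40 and 2.97 CPM in controls and 10.9, 3.56, 2.32 and 3.90 CPM after BPA. In each sex 3 of the 4 BPA libraries were above every control, and in males the fourth, BPA 2, was the lowest of all 16. BPA against control gave a log2 fold change of 0.072 ± 0.62 in males (95% confidence interval -1.24 to 1.39) and 0.75 ± 0.58 in females (-0.47 to 1.98). Without male BPA 2 the male value was 0.82, and without female BPA 1 the female value was 0.28. Male BPA 2 is also the library with the most astrocyte RNA; its part in the Il1b value was not tested.

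Tnf, tumour necrosis factor, had fitted differences of opposite sign in the sexes. Males had 1.84, 4.65, 4.72 and 1.12 CPM in controls and 2.64, 2.54, 2.58 and 1.74 CPM after BPA. Females had 2.84, 3.66, 2.40 and 3.82 CPM in controls and 7.55, 3.77, 3.77 and 5.46 CPM after BPA. All 4 male BPA libraries were below the male control mean of 3.08 CPM and all 4 female BPA libraries were above the female control mean of 3.18 CPM, yet the groups overlap in both sexes. On the log2 scale the fold change was -0.091 ± 0.41 in males and 0.63 ± 0.34 in females. The male sign is not stable: it was 0.16, 0.20 and 0.066 without male control 2, male control 3 and male BPA 4 in turn. The difference between them, females minus males, was 0.72 ± 0.54 and did not pass (limma-voom, unadjusted p = 0.197, adjusted p = 0.999).

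Among the chemokines, Cxcl2 had the largest fitted difference of any member in females. Cxcl2 draws neutrophils through the receptor Cxcr2. In males it stood at 4.97, 5.68, 2.99 and 2.60 CPM in controls and 3.55, 5.28, 3.59 and 3.80 CPM after BPA. Females had 3.42, 2.43, 2.74 and 4.29 CPM in controls and 10.1, 4.22, 5.39 and 8.90 CPM after BPA. Of the 4 female BPA libraries 3 were above all female controls and the fourth, BPA 2, was just under the highest control. Female BPA was 2.08-fold (95% confidence interval 1.33 to 3.24) higher, a log2 fold change of 1.05 ± 0.30 (limma-voom, unadjusted p = 0.00310, adjusted p = 0.999), and it was 0.84 without female BPA 1. In males the log2 fold change was 0.083 ± 0.33. The difference between the sexes was 0.97 ± 0.44 (limma-voom, unadjusted p = 0.0444, adjusted p = 0.999), so it is not shown that the sexes differ.

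Ccl2, the chemokine that calls monocytes through Ccr2, was the one member with fitted levels higher by more than 0.4 on the log2 scale in both sexes. Males had 7.47, 9.22, 8.24 and 3.87 CPM in controls and 11.3, 8.66, 11.7 and 7.16 CPM after BPA. Females had 7.26, 8.12, 4.92 and 5.66 CPM in controls and 15.4, 6.63, 11.3 and 10.3 CPM after BPA. Of the 8 BPA libraries 7 lie above the control mean of their sex (3 of 4 males, 4 of 4 females), with overlap in both. Fitted log2 fold changes were 0.48 ± 0.29 in males, 0.74 ± 0.28 in females and 0.61 ± 0.20 over both sexes, or 1.53-fold (95% confidence interval 1.13 to 2.06). Over both sexes it had the smallest p of the members (limma-voom, unadjusted p = 0.00876, adjusted p = 0.449), rank 318 of 16339 genes.

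Ccl3 and Ccl4, neighbouring chemokine genes on chromosome 11, varied together. Ccl3 stood in males at 9.63, 14.8, 20.7 and 9.18 CPM in controls and 15.5, 9.98, 21.6 and 14.03 CPM after BPA. In females it stood at 21.3, 26.4, 9.62 and 16.3 CPM in controls and 44.2, 18.5, 14.4 and 25.8 CPM after BPA. For Ccl3 only female BPA 1 and male BPA 3 exceed all controls of their sex, and for Ccl4 only female BPA 1 does. Ccl4 stood in males at 6.04, 12.5, 19.1 and 6.55 CPM in controls and 12.7, 5.38, 16.2 and 9.47 CPM after BPA. Female libraries had 22.03, 27.05, 7.27 and 9.45 CPM in controls and 38.3, 12.7, 12.2 and 18.1 CPM after BPA. The log2 fold change of Ccl3 was 0.20 ± 0.43 in males and 0.43 ± 0.36 in females, and that of Ccl4 was 0.042 ± 0.59 and 0.36 ± 0.46. Without female BPA 1 the female values were 0.10 for Ccl3 and -0.028 for Ccl4.

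Cxcl10, an interferon-induced chemokine for Cxcr3, was the lowest member, with 14 to 65 counts per library. Males had 0.439, 1.73, 0.664 and 0.561 CPM in controls and 1.34, 0.448, 0.737 and 0.407 CPM after BPA. Females had 1.38, 1.08, 0.346 and 1.06 CPM in controls and 1.65, 0.699, 1.62 and 0.678 CPM after BPA. High and low libraries occur in every group. The log2 fold change was -0.13 ± 0.56 in males and 0.37 ± 0.49 in females, and a 2-fold rise lies inside both 95% confidence intervals (-1.31 to 1.05 and -0.67 to 1.41).

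Of the feedback inhibitors, Nfkbia was the more even. Nfkbia stood in males at 24.6, 48.02, 33.4 and 24.9 CPM in controls and 39.3, 54.8, 36.5 and 27.4 CPM after BPA. Its female values were 51.8, 41.6, 25.9 and 40.0 CPM in controls and 68.0, 36.4, 35.5 and 49.8 CPM after BPA. Its highest library had 2.76 times the CPM of its lowest, the narrowest span of the 10, beside 15.1 times for Il1b. BPA against control gave a log2 fold change of 0.32 ± 0.28 in males and 0.24 ± 0.27 in females.

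Tnfaip3 stood in males at 8.34, 27.1, 14.5 and 8.80 CPM in controls and 13.8, 20.1, 12.9 and 8.79 CPM after BPA. In females it stood at 22.9, 18.7, 11.9 and 16.1 CPM in controls and 48.03, 17.96, 18.3 and 30.0 CPM after BPA. The male groups overlap throughout, and female BPA 1 and BPA 4 lie above all female controls. The log2 fold change was 0.12 ± 0.43 in males and 0.62 ± 0.35 in females.

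Counted over the 10 members, limma-voom called 0 in males, 0 in females, 0 over both sexes and 0 for the difference between the sexes. Of all 16339 genes it called 0.00612%, 0.00%, 0.0184% and 0.00% in these comparisons, so a count of 0 among 10 is no result about the members. At an unadjusted p under 0.05, 0, 2, 2 and 1 members passed, beside 7.96%, 4.55%, 7.69% and 4.72% of all genes. Those were Cxcl2 and Ccl2 in females and over both sexes, and Cxcl2 for the difference. Fitted levels were higher after BPA for 8 of 10 members in males (52.5% of all genes) and 10 of 10 in females (50.6%), and 10 of 10 over both sexes (51.2%). The male count was 3 without male control 4, 5 without male control 1 or male BPA 3, and 10 without male control 2. Left-out single libraries gave a female count from 8 to 10, lowest without female BPA 1, and from 9 to 10 over both sexes. The female effect exceeded the male effect for 9 of 10 (46.3% of all genes), the exception being Nfkbia, and for 6 of 10 without female BPA 1. The median log2 fold change of the members was 0.078 in males, 0.54 in females and 0.30 over both sexes, beside medians over all genes of 0.0088, 0.0019 and 0.0030. No member had every BPA library above every control of its sex, which 1.62% of genes did in males and 1.27% in females (0.0551% in each of the sexes at once). Without male BPA 2 and female BPA 1 the female median was 0.24 and the median over both sexes was 0.17. Members are not independent of each other, and 9 of 10 share female BPA 1 as their highest library.

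The microglial gauge was itself compared between groups. C1qa stood in males at 65.2, 132, 95.3 and 65.7 CPM in controls and 127, 127, 140.1 and 86.3 CPM after BPA. Its female values were 186, 159, 81.7 and 123 CPM in controls and 240.0, 105, 112 and 124 CPM after BPA. Female BPA 1 is the highest library for C1qa, and the groups overlap in both sexes. Csf1r stood in males at 125, 365, 224 and 146 CPM in controls and 271, 325, 290.3 and 165 CPM after BPA. Female libraries held 432, 382, 199 and 253 CPM in controls and 547, 216, 235 and 329 CPM after BPA. The pair rises and falls together from library to library, with male controls 1 and 4 lowest. The microglial index, the mean log2 CPM of C1qa and Csf1r, averaged 7.02 ± 0.59 in male controls and 7.44 ± 0.36 in BPA males (SD, n = 4), a difference of 0.42 (exact permutation test, two-sided, p = 0.257, 0.544 after adjustment over 3 comparisons). In females it averaged 7.64 ± 0.52 and 7.69 ± 0.57, a difference of 0.048 (exact permutation test, p = 0.943, also 0.943 after adjustment). Over both sexes the difference was 0.23 (exact permutation test with labels permuted within sex, p = 0.363, 0.544 after adjustment). Leaving out single libraries moved these differences: in males they ran from 0.24 to 0.67 (lowest without male control 1, highest without male control 2), in females from -0.22 to 0.22 (lowest without female BPA 1, highest without female control 1) and over both sexes from 0.10 to 0.36 (lowest without female BPA 1, highest without male control 2).

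Within groups, most members followed the index. Tnfaip3 had the steepest fit relative to its error, with a slope of 1.10 ± 0.10 log2 units per log2 unit of the index (limma-voom with the 4 group means in the model, adjusted p = 4.54e-06). Nfkbia followed with 0.78 ± 0.084 (limma-voom, adjusted p = 2.35e-05), and Il1a with 1.44 ± 0.23 (limma-voom, adjusted p = 0.00106). At a slope of 1 a gene rises in proportion to C1qa and Csf1r, and the 95% confidence intervals of Nfkbia (0.60 to 0.96), Ccl2 (0.33 to 0.95) and Cxcl2 (0.063 to 0.94) lie below that. Ccl4 (1.20 ± 0.26), Ccl3 (0.90 ± 0.20), Tnf (0.81 ± 0.19) and Ccl2 (0.64 ± 0.14) also rose with the index, with limma-voom adjusted p between 0.0143 and 0.0278. Cxcl10 (1.04 ± 0.29, adjusted p = 0.0811), Cxcl2 (0.50 ± 0.20, adjusted p = 0.398) and Il1b (0.64 ± 0.45, adjusted p = 0.765) did not pass. So 7 of 10 members passed with a positive slope, beside 3.16% of all genes, and 0 with a negative one (0.0490%). The count fell to 3 without male BPA 2 and female BPA 1, and it ranged from 2 to 8 when single libraries were left out, lowest without female BPA 1.

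Correlations with group means removed were led by the same 3 members. Over 16 libraries Tnfaip3 had Pearson's r = 0.95 and Spearman's rho = 0.89 with the index (index permuted within groups, permutation p = 3.00e-05 and 2.00e-05, adjusted over 16339 genes 0.00471 and 0.00516). Nfkbia had r = 0.94 and rho = 0.91 (permutation p = 4.00e-05 and 3.00e-05, adjusted 0.00527 and 0.00516), and Il1a had r = 0.85 and rho = 0.82 (permutation p = 8.20e-04 and 8.10e-04, adjusted 0.0333 and 0.0350). These 3 members passed by either measure, beside 2.70% of all genes with a positive r and 2.55% with a positive rho. Female BPA 1 and male control 2 lay farthest from the median of the index once group means were removed. Without them r was 0.90 for Tnfaip3, 0.89 for Nfkbia and 0.70 for Il1a. The r of Ccl2, Tnf, Ccl3, Ccl4 and Cxcl10 lay between 0.72 and 0.76, and their rho between 0.70 and 0.79, with permutation p for r from 0.00411 to 0.00665 and adjusted values from 0.110 to 0.154. For rho the permutation p ran from 0.00173 to 0.0124, and adjusted from 0.0605 to 0.227. Without those 2 libraries their r lay between 0.58 and 0.72. Cxcl2 had r = 0.47 and rho = 0.42 (permutation p = 0.137 and 0.166, adjusted 0.665 and 0.659), which fell to 0.089 without the 2 libraries and so rests on them. Il1b had r = 0.29 and rho = 0.23 (permutation p = 0.265 and 0.413, adjusted 0.769 and 0.812), and -0.080 without them.

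**Figure D3:**
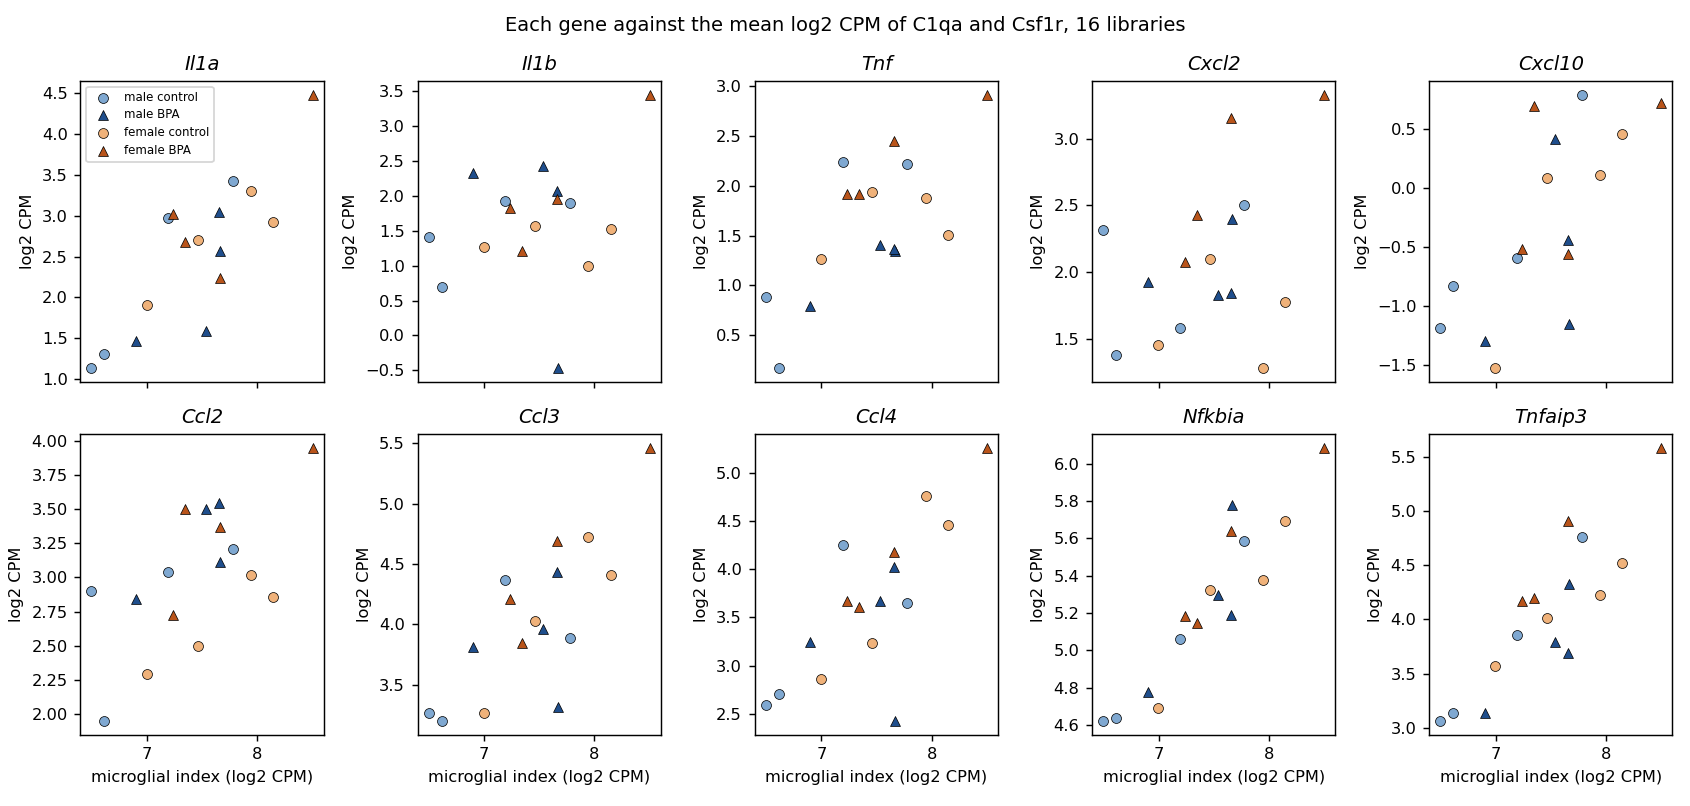
log2 CPM of each member (y axis) against the microglial index, the mean log2 CPM of C1qa and Csf1r (x axis), for 16 libraries coloured by group (circles control, triangles BPA). Nfkbia and Tnfaip3 lie close to a line, whereas Il1b is scattered, with male BPA 2 far below the rest.

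With the index as a covariate, the fitted difference after BPA was lower for all 10 members in males, and in females the median stayed within 0.1 of that from the group means alone. That shift largely follows from the arithmetic of the fit, so it is no separate result about the members. All 10 slopes on the index were positive, and the index was 0.42 higher after BPA in males and 0.048 higher in females. The male difference of the index did not itself pass (exact permutation test, p = 0.257). In males 1 of 10 members, Ccl2, had a fitted log2 fold change above 0 (51.0% of all genes), with a median of -0.36. In females 10 of 10 were above 0 (49.8% of all genes), with a median of 0.52, and over both sexes 7 of 10 (49.6%). The 25 immediate early and dissociation response genes, which cell dissociation can induce, had medians of the same signs on this footing, -0.13 in males and 0.35 in females; their part in the members' values was not tested. Females exceeded males for 10 of 10 (48.1%). In each of these comparisons limma-voom called 0 members and 0.00% of all genes. At an unadjusted p under 0.05, 1 member passed in males (7.00% of all genes), 4 in females (4.84%), and 2, Cxcl2 and Ccl2, over both sexes (7.01%). In females those were Cxcl2 (1.07 ± 0.26, unadjusted p = 0.00107), Ccl2 (0.71 ± 0.19, unadjusted p = 0.00196), Tnf (0.64 ± 0.24, unadjusted p = 0.0181) and Tnfaip3 (0.60 ± 0.13, unadjusted p = 2.65e-04). In males it was Tnfaip3, at -0.43 ± 0.15 (unadjusted p = 0.0113). The sex difference of Tnfaip3 on this footing was 1.04 ± 0.19 (limma-voom, unadjusted p = 9.56e-05, adjusted p = 0.603), which does not pass over all genes. Leaving out male BPA 2 gave 1.17 (adjusted p = 0.0702, limma-voom), and leaving out female BPA 1 gave 1.06 (adjusted p = 0.9998). For the difference between the sexes 4 members had an unadjusted p under 0.05 (4.93% of all genes), namely Tnfaip3, Tnf (1.18 ± 0.38), Cxcl2 (1.22 ± 0.40) and Il1a (1.1597 ± 0.45), and 0 were called. All 10 members were still above 0 in females without male BPA 2 and female BPA 1, with a median of 0.40. The male median without both was -0.16, with 3 members above 0: Ccl2, Il1b (0.69) and Ccl3 (0.10).

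**Figure D4:**
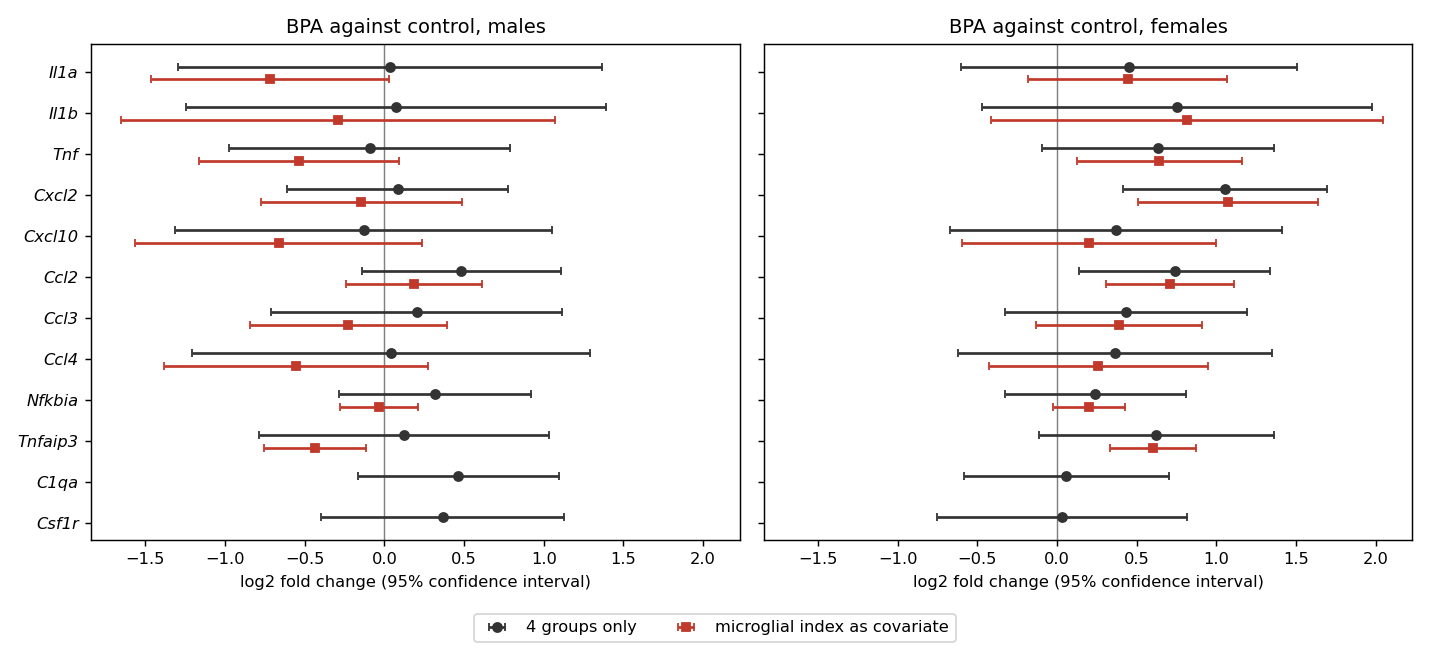
log2 fold change of BPA against control (x axis, with 95% confidence intervals) for each member, C1qa and Csf1r, in males (left) and females (right); circles are from the 4 group means alone and squares have the microglial index as a covariate. In males the squares lie left of the circles for all 10 members, and in females they stay close to them. The male shift largely follows from positive slopes and a higher index in BPA males.

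Taken as ratios to the index instead, the pattern was alike. A ratio sets the slope to 1 and uses the same libraries and index, so the likeness is no separate support. The log2 ratio of gene to index changed in males by -0.39 for Tnfaip3, -0.57 for Tnf and 0.052 for Ccl2, the one member above 0. In females it changed by 0.58 for Tnfaip3, 0.60 for Tnf and 0.66 for Ccl2, and all 10 were above 0. The median over members was -0.37 in males and 0.49 in females. These ratios were not tested.

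The genes whose log2 CPM was most like each member's over the 16 libraries were read from the tested genes that average 1 CPM or more and have a full symbol. These r values are descriptions, and libraries share their cell makeup. Ccl3 and Ccl4 were each other's nearest gene (r = 0.96). Ccl2 was nearest to Ccl7 (r = 0.90), its neighbour on chromosome 11, and Cxcl2 to Cxcl1 (r = 0.89), its neighbour on chromosome 5. Nfkbia was nearest to Dapp1 (r = 0.97), Pik3r5 and Kctd12, and Tnfaip3 to Atf3 (r = 0.97), Icam1 and Neurl3. Tnf was nearest to Ccrl2 (r = 0.92), Irf1 and Neurl3, and Il1a to Havcr2 (r = 0.94), Rgs1 and Pde3b. Il1b and Cxcl10 had no gene as close: the nearest to Il1b was Rps3, a ribosomal protein gene (r = 0.79), and the nearest to Cxcl10 was Kcnk12 (r = 0.80). Among the members, Nfkbia and Tnfaip3 were close (r = 0.93), and Il1b and Nfkbia were farthest apart (r = 0.20), although Il1a and Il1b lie side by side on chromosome 2 (r = 0.32).

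No gene of the wider pathway passed the adjusted threshold for BPA, which 0.0184% of all genes did over both sexes. Higher fitted levels over both sexes were found for 51.2% of all genes, and an unadjusted p under 0.05 (limma-voom) for 7.69%. Of 32 other cytokines and chemokines 23 passed the filter, 14 had higher fitted levels over both sexes and 0 were called by limma-voom (1 at an unadjusted p under 0.05), with a median log2 fold change of 0.11. That 1 was Ccl7, a monocyte chemokine, at 3.72 ± 1.07 CPM in the 8 controls and 5.84 ± 1.56 CPM in the 8 BPA libraries (log2 fold change 0.65 ± 0.21, limma-voom adjusted p = 0.438). Cxcl1, which shares Cxcr2 with Cxcl2, stood at 1.85 ± 0.632 CPM in the 8 controls and 2.90 ± 1.58 CPM in the 8 BPA libraries (0.9960 ± 0.38 in females and 0.17 ± 0.43 in males). Of 14 receptors, decoys and antagonists of the members 11 passed the filter, 10 were higher and 0 were called (0 at an unadjusted p under 0.05), with a median of 0.18. Ccr1, a receptor of Ccl3, was at 0.38 ± 0.23.

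All 24 NF-kB subunits, kinases and adaptors passed the filter, 14 were higher, 0 were called by limma-voom (2 at an unadjusted p under 0.05), and the median was 0.032. The 2 were lower: Tab1, an activator of the kinase Tak1, at 33.2 ± 2.26 CPM in the 8 controls and 28.9 ± 2.13 CPM in the 8 BPA libraries (-0.19 ± 0.053, limma-voom adjusted p = 0.298), and Rel, the subunit c-Rel, at -0.23 ± 0.087 (-0.45 ± 0.13 in males and -0.019 ± 0.12 in females). Of 22 other NF-kB inhibitors and induced feedback genes 21 passed the filter, 14 were higher and 0 were called (0 at an unadjusted p under 0.05), with a median of 0.055. Nfkbiz, an atypical IkB protein, was at 0.44 ± 0.24 and Nfkbid, another, at 0.46 ± 0.30, while Birc2 was lower, at -0.18 ± 0.11. With the index as a covariate these were 0.26, 0.23 and -0.11. Of those 21, 8 passed with a positive slope on the microglial index, beside 3 of the 24 subunits and kinases and 3.16% of all genes.

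The marker lists of other cells did not share a direction. Of all genes, 51.2% had higher fitted levels over both sexes and 7.69% an unadjusted p under 0.05 (limma-voom). A positive slope on the index passed for 3.16%. All 21 microglia markers had higher fitted levels over both sexes, with a median of 0.21 (0.38 in males and 0.033 in females), 0 called by limma-voom and 1 at an unadjusted p under 0.05. All 9 border-associated macrophage markers were higher, with a median of 0.22 (0.42 in males), 0 called and 3 at an unadjusted p under 0.05. Among those, Lyve1 was at 0.53 ± 0.15, and 0 of the 9 passed with a slope on the index. The 25 immediate early and dissociation response genes were all higher, with a median of 0.26 (0.13 in males and 0.39 in females), 0 called and 3 at an unadjusted p under 0.05, and 12 of them passed with a positive slope on the index. Ependymal and choroid plexus markers were higher for 8 of 9 tested (median 0.41) and mural and fibroblast markers for 10 of 11 (median 0.36), both medians above that of microglia. By sex, the ependymal and choroid plexus median was 0.54 in males and 0.26 in females. Mural and fibroblast markers had 0.64 in males (10 of 11 higher) and -0.0091 in females (5 of 11). Their sum was highest in male BPA 2, at 139 CPM beside a median of 55.5 in BPA males. Astrocyte markers were higher for 9 of 11 (median 0.15). Lower fitted levels prevailed among oligodendrocyte (2 of 12 higher, median -0.036), oligodendrocyte precursor (1 of 8, -0.071), neuron (1 of 9, -0.10) and lymphocyte markers (1 of 5, -0.16), and endothelial markers were near even (5 of 11, -0.0016). Precursor markers split by sex: 0 of 8 were higher in males (median -0.38) and 8 of 8 in females (0.16), beside 52.5% and 50.6% of all genes. Their sum was highest in female BPA 2, at 7094 CPM, beside a median of 5084 in BPA females and at most 5239 in female controls. The part of that library in the split was not tested. Those signs alone make the female effect exceed the male effect for 8 of 8 (46.3% of all genes), so that count adds nothing. The difference had an unadjusted p under 0.05 for 4 of them (limma-voom, 4.72% of all genes). Oligodendrocyte markers were higher for 7 of 12 in males (median 0.032) and 2 of 12 in females (-0.082). limma-voom called 0 genes of these lists. In sum the microglia markers ran from 859 to 2130 CPM in male controls, 1045 to 1931 in BPA males, 1222 to 2703 in female controls and 1490 to 3302 in BPA females. The part of microglial content, border macrophages or dissociation in the members' values was not tested beyond the covariate above.

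Some members share sequence or place with other genes. Of the 50-base words in Cxcl2 transcripts 5.84% also occur in Cxcl3, which had at most 0.0530 CPM in any library. Il1b overlaps exons of Il1bos on the other strand (at most 0.231 CPM), Il1a those of Gm14023 (0.378 to 1.11 CPM) and Cxcl10 those of Art3 (0.201 to 1.92 CPM). Csf1r, of the gauge, overlaps exons of Hmgxb3 on the other strand (64.3 to 79.9 CPM). The libraries were stranded per the labels' protocols, but the strand setting of the counting is not given in the sources used here, so Cxcl10, whose range of levels is close to that of Art3, is uncertain.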

How the data were processed

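RNA sequencing counts of 16 libraries were analysed. The libraries were stranded and made from poly(A) RNA, per the labels' protocols. Per the submitters' processing notes, bcl2fastq 2.20.0.422, STAR 2.5.3a, HTSeq 0.6.1p1, DESeq2 1.16.1 and build mm39 were used; the annotation release is not given in the sources used here. The deposited table holds raw counts, read as such from the file headers and whole values, and values the authors divided by size factors and by median transcript length in kilobases, which served only for levels between genes. The check of units cannot parse that table, so limma-voom, the stated fallback, replaced the count model of the plan. Symbols were matched for 31717 of 32207 genes.

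Genes with a count of 10 (scaled to library size) in at least 4 libraries and 15 in total were kept: 16339 genes holding 99.9% of the counts. Scaling used a re-implementation of the trimmed mean of M values in R 4.3.3. limma 3.58.1 (voom, robust empirical Bayes) fitted 1 coefficient per group over 16 libraries, with Benjamini-Hochberg adjustment over all genes and a threshold of 0.05, two-sided. Log2 CPM used a prior count of 2. The microglial index entered as a covariate; its correlations used 100000 permutations within groups in Python 3.11.15 (scipy 1.17.1, numpy 2.4.6). The fit was tested on simulated data with the same spread for all genes, a check of the code and not of power for the members. A gene observed at 0 counts could have an expected count of up to about 3, which is 0.0707 to 0.127 CPM. Alternatives were the scaling, the filter, limma-trend, each sex alone, the replicate number as a block, the index, the microglia marker list, and libraries left out; limma-trend, the marker list as covariate, and the index as covariate without the libraries set aside were added after seeing the data. The members, gene lists and the 2 libraries set aside were chosen with earlier results of these data known. Named beside the members were up to 4 genes of each list with the smallest p over both sexes, and the 3 genes most like each member. Replicate numbers were not taken to pair libraries, and the tests measure spread between libraries only. Promoters came from RefSeq (GRCm38.p6).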

Additional observations from a re-analysis of the deposited data

Results flagged for a closer look

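Of 52 groups of 4 values checked for a single library far from the others, 4 stood out; chance alone gives about 1 in 20. Tnf in BPA males was lowest in BPA 4 at 1.74 CPM, while the other 3 lay between 2.54 and 2.64 CPM. The microglial index was also lowest in that library among BPA males, at 6.90 beside 7.54 to 7.67. Cxcl2 in BPA males was highest in BPA 2, the library with the most astrocyte RNA, at 5.28 CPM beside 3.55 to 3.80. C1qa in BPA females was highest in BPA 1 at 240.0 CPM beside 105 to 124, and 9 of the 10 members were highest there too.

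Tnf had differences of opposite sign in the sexes: all 4 BPA males were below the male control mean and all 4 BPA females above the female control mean, and the differences of means lay 2.67 CPM apart. The male fold change on the log2 scale ran from -0.49 to 0.20 when single libraries were left out, so its sign is not stable. The difference itself was tested in limma-voom as an interaction, at 0.72 ± 0.54 on the log2 scale, and did not pass (adjusted p = 0.999; 0.392 to 0.999998 over all alternatives).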

How the results depend on the processing

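Under every alternative run 0 members were called in the 4 BPA comparisons. Genes called, 1 in males, 0 in females and 3 over both sexes, became 2 and 2 in males and females with no filter, 4 and 1 with each sex alone and 3 in males with limma-trend; over both sexes they became 0 with a mean of at least 1 CPM. They were 0 in males and over both sexes with either microglial covariate and without male BPA 2 and female BPA 1. Leaving out single libraries gave 0 to 0 in males, 0 to 5 over both sexes and 0 to 3 for the sex difference, and 2 to 8 members called on the index. The cause was not tested.

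The replicate number as a block gave 0 genes called over both sexes, 3 members on the index and -0.063 for Il1a in males; it changed no other direction. Libraries of the same number did not deviate together (mean r 0.0088 over 24 pairs, -0.18 to 0.38), and 5 of 16 correlated best with their own number, so this is no pairing.

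Fold changes (log2) that changed sign, none of them called, were as follows. With the index as covariate: in males Il1a -0.72, Il1b -0.29, Cxcl2 -0.14, Ccl3 -0.23, Ccl4 -0.55, Nfkbia -0.035, Tnfaip3 -0.43, over both sexes Il1a -0.14, Cxcl10 -0.23, Ccl4 -0.15, for the sex difference Nfkbia 0.23, and the male median -0.36. With the marker list: in males Il1a -0.68, Il1b -0.24, Cxcl2 -0.10, Ccl3 -0.20, Ccl4 -0.53, Tnfaip3 -0.39, over both sexes Il1a -0.091, Cxcl10 -0.20, Ccl4 -0.13, for the sex difference Nfkbia 0.20, and the male median -0.32. Without male BPA 2 and female BPA 1: in males Il1a -0.11, Cxcl2 -0.053, Cxcl10 0.070, Tnfaip3 -0.093, in females Il1a -0.0054, Ccl4 -0.013, over both sexes Il1a -0.059, for the sex difference Il1b -0.54, Ccl3 -0.30, Ccl4 -0.40. With limma-trend Il1a in males was -0.043. Without female BPA 1 and male control 2 the correlation of Il1b with the index was -0.080.

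With the index as covariate and, as a choice made after seeing the data, male BPA 2 and female BPA 1 left out, 2 members in males had an unadjusted p under 0.05, and signs changed for Il1b in males (0.69), Ccl3 in males (0.10), Ccl4 over both sexes (0.070) and Il1b for the sex difference (-0.32). With male BPA 2 alone left out they were Il1b 0.48 and Ccl3 0.064 in males and Ccl4 0.087 over both sexes, the median of the sex difference was 0.48 and that in males -0.20. With female BPA 1 alone left out, Il1b in males was 0.070, the female median 0.34, and 1 member over both sexes had an unadjusted p under 0.05.

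Ranges over single libraries left out, where a sign changed, were: in males Il1a -0.34 to 0.39, Il1b -0.22 to 0.82, Tnf -0.49 to 0.20, Cxcl2 -0.11 to 0.24, Cxcl10 -0.47 to 0.23, Ccl4 -0.22 to 0.38, Tnfaip3 -0.10 to 0.42. They were in females Il1a -0.020 to 0.68, Cxcl10 -0.054 to 0.60, Ccl4 -0.028 to 0.68. They were over both sexes Cxcl10 -0.089 to 0.31. They were for the sex difference Il1a -0.055 to 0.81, Il1b -0.071 to 1.05, Ccl3 -0.10 to 0.51, Ccl4 -0.070 to 0.65, Nfkbia -0.28 to 0.10. The male median ran from -0.13 to 0.26, the slope of Il1b on the index from -0.022 to 0.93 and the female difference of the index from -0.22 to 0.22.

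Neither edgeR, the count model of the plan, nor DESeq2 was run, since the check of units could not parse the table. Cxcl10 does not reach a mean of 1 CPM and has no value under that filter. Its 14 to 65 counts limit it, and the spread between libraries limits the rest: without the covariate, no 95% confidence interval of a member in males excludes 0.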

Other observations

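A pair of further gene groups was read beside the members. Over both sexes 0.0184% of all genes were called and 7.69% had an unadjusted p under 0.05 (limma-voom). A positive slope on the index passed for 3.16% of all genes. Of 9 inflammasome and interleukin 1 processing genes 8 passed the filter, and 6 had higher fitted levels over both sexes with 0 called by limma-voom (0 at an unadjusted p under 0.05) and a median log2 fold change of 0.11. Of the 8, 5 passed with a positive slope on the microglial index, among them Nlrp3, the sensor that activates caspase 1, with a slope of 1.27, and Casp1 itself with 0.64; Il1b, the substrate of caspase 1, had 0.64 ± 0.45 and did not pass. Nlrp3 stood at 3.99 ± 2.10 CPM in the 8 controls and 5.36 ± 2.71 CPM in the 8 BPA libraries.

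Of the 19 interferon-stimulated genes 0 passed with a slope on the index. Over both sexes 13 were higher, 0 were called by limma-voom (1 at an unadjusted p under 0.05) and the median was 0.046. That 1 was Irf9, a subunit of the interferon response complex, at 12.4 ± 1.22 CPM in the 8 controls and 14.2 ± 1.89 CPM in the 8 BPA libraries (0.19 ± 0.087, limma-voom adjusted p = 0.631). Whether the slopes of these lists differ from those of the members was not tested.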
